A study of Mus musculus with 25 samples.

Results

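Crosslinks of SRSF7 to RNA were examined at 3 plus-strand regions of the mouse genome that carry small nucleolar RNA (snoRNA) genes, out of 505031 strand windows and regions with events. The regions, on build mm9, were the U8 snoRNA gene Snord118 together with its neighbour Tmem107 (chr11:68883001-68890000), Gas5 (chr1:162960001-162972000) and Snhg1 (chr19:8795001-8803000). They hold 4 named genes. The regions were given by coordinates and had been picked with earlier results of these libraries known, so the levels below are descriptions and the comparisons give no independent evidence for the choice. Every plus-strand event inside a region was counted in each of the 25 libraries, so an event of a neighbouring gene on that strand would be counted too.

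SRSF7 is a serine/arginine-rich protein with an RNA recognition motif and a zinc knuckle that takes part in splicing and in the handling of mRNA. All libraries came from P19, a mouse embryonal carcinoma line, irradiated at 254 nm unless stated otherwise. In iCLIP, UV links protein to RNA, the protein is immunoprecipitated, and each cDNA that stops beside the linked nucleotide is counted as 1 event. Cells overexpressing SRSF7-GFP gave the WT libraries (3, anti-EGFP) and, with anti-SRSF7, the products titled GFP_OE (2), endo_OE (2) and RRM_OE (2). Cells of the genotypes SRSF7mutZn-GFP and SRSF7D27aa-GFP gave mutZn (2) and D27aa (2) with anti-EGFP, and cells labelled WT gave endo_WT (1) with anti-SRSF7. Controls were 1 no-UV library for each anti-EGFP protein, and 1 no-UV and 1 no-antibody library for the anti-SRSF7 series. The piCLIP libraries, from SRSF7-GFP cells, were mono_IP (2) and poly_IP (2), each with 1 library titled IgG. Markers of P19 cells were not analysed here, because no mm9 gene annotation was used.

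U8 is a box C/D snoRNA, a short nucleolar RNA held in a protein complex with fibrillarin. Unlike most snoRNAs it does not guide methylation but is needed for the processing of the ribosomal RNA precursor into the large-subunit RNAs. In vertebrates it lies beside Tmem107, which encodes a membrane protein of the ciliary transition zone. Gas5 and Snhg1 are snoRNA host genes. Their spliced exons form long noncoding RNAs with little coding capacity, and the snoRNAs are released from their introns. RefSeq lists Snord118 with 137 nt, Gas5 with 3939 nt and Snhg1 with 2840 nt, and it places 8 snoRNA genes inside Gas5 (60 to 83 nt each) and 8 inside Snhg1 (65 to 126 nt each). No sequence or exon of build mm9 was used here, so no base and no snoRNA of the 2 host genes was assigned to a crosslink.

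Depth set how firmly each library can be read. The 7 UV anti-EGFP libraries held 221521 to 11774078 placed events, the 7 UV anti-SRSF7 libraries 17745 to 471340, the 3 anti-EGFP no-UV libraries 34916 to 88997 and the 4 piCLIP immunoprecipitates 18319 to 52393. The other 4 controls held 1153 to 11158. Levels are given as events per 1e+06 placed events of the library (CPM), so they are shares of the library. RNA abundance was not measured, and more RNA in the cells or the lysate and more protein bound per RNA cannot be told apart. Intervals are exact 95% intervals that cover counting error only.

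Of the 3 regions, U8 had the highest CPM in all 14 UV iCLIP libraries. WT held 1142, 421 and 347 CPM (replicates 2, 3 and 4, from 253, 462 and 1370 events), mutZn 372 and 360.1 CPM, and D27aa 999 and 1128 CPM. WT 2 lay with the D27aa libraries, and the ranges of WT and D27aa overlapped. The 4 libraries of this series above 1e+06 events lay between 347 and 421 CPM, and the 3 below it lay between 999 and 1142 CPM. Depth therefore moved with the U8 level across these 7 libraries, and its part in the differences was not tested.

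Of the 7 libraries taken with anti-SRSF7, 6 lay above all anti-EGFP libraries at U8, and RRM_OE 3 did not. GFP_OE held 1595 and 2667 CPM, endo_OE 8310 and 8044 CPM, endo_WT 7041 CPM, and RRM_OE 789 and 4144 CPM. In order of group means, endo_OE (8177 ± 188 CPM, SD, n = 2) and endo_WT (1 library) came first. RRM_OE (2466 ± 2372, n = 2) and GFP_OE (2131 ± 758, n = 2) followed, with overlapping ranges. Mono_IP (1116 ± 417, n = 2), D27aa (1063 ± 91.3, n = 2), WT (637 ± 439, n = 3), poly_IP (393 ± 371, n = 2) and mutZn (366 ± 8.43, n = 2) came last, and each neighbouring pair among these 5 overlapped. RRM_OE 3 rested on 14 events and RRM_OE 4 on 178.

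Gas5 and Snhg1, the 2 hosts, held events at lower and more even levels. Gas5 stood at 357, 320.5 and 309.7 CPM in WT, 232 and 236 CPM in mutZn, and 287 and 294 CPM in D27aa. Snhg1 stood at 122, 205 and 203 CPM in WT, 185 and 204 CPM in mutZn, and 127 and 167 CPM in D27aa. The 3 groups did not overlap at Gas5 and overlapped at Snhg1, except that mutZn lay above D27aa. With anti-SRSF7, Gas5 reached 450.0 and 636 CPM in GFP_OE, 1196 and 898 in endo_OE, 502 in endo_WT, and 507 and 512 in RRM_OE. Snhg1 reached 426 and 549 CPM in GFP_OE, 1405 and 742 in endo_OE, 407 in endo_WT, and 564 and 466 in RRM_OE. Every UV anti-SRSF7 library lay above every UV anti-EGFP library at both hosts, and endo_OE was the highest group at both. How many of all windows separate by group or by antibody in these ways was not counted, here or at U8. The separations are therefore not read as particular to these regions.

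**Figure D1:**
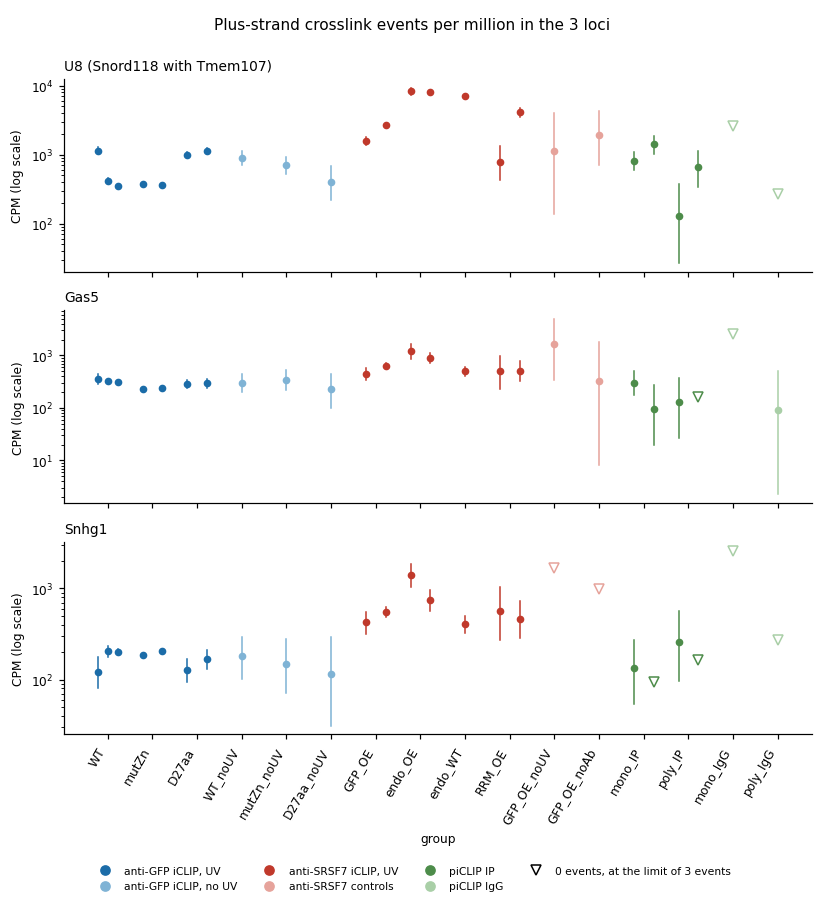
Events per 1e+06 placed events (CPM, log axis) at U8, Gas5 and Snhg1 in each library, with exact 95% counting intervals. Open triangles mark libraries with 0 events, drawn at the level of 3 events. U8 reaches 8310 CPM in endo_OE 4 and lies above both hosts in all 14 UV iCLIP libraries.

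The ratio of events between regions does not depend on the library total. U8 held 3.20, 1.31 and 1.12 events for each Gas5 event in WT, 1.61 and 1.53 in mutZn, and 3.48 and 3.84 in D27aa. The ratio still moved with depth in this series. It was 1.12 to 1.61 in the libraries above 1e+06 events and 3.20 to 3.84 in those below, and the part of depth was not tested. With anti-SRSF7 the ratio was 3.54 and 4.19 in GFP_OE, 6.95 and 8.96 in endo_OE, 14.04 in endo_WT, and 1.56 and 8.09 in RRM_OE. Endo_WT had the highest U8 to Gas5 ratio among the UV iCLIP libraries. The 2 hosts stayed closer to each other: Gas5 over Snhg1 ran from 0.851 (endo_OE 4) to 2.93 (WT 2) over the 14 UV iCLIP libraries.

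Within the Snord118 and Tmem107 region, nearly all events fell in 1 snoRNA-sized peak. Peaks were defined on the 2 mutZn libraries as runs of 50-nt bins at least 10 times the median bin, up to 250 nt long. The U8 peak was chr11:68886901-68887050, 150 nt, close to the length RefSeq gives for Snord118. It held 97.2% and 97.7% of the region's events in the mutZn libraries that defined it. In the other libraries it held 99.6%, 98.9% and 98.2% in WT, 99.5% and 98.2% in D27aa, 98.5% and 99.3% in GFP_OE, 99.6% and 100% in endo_OE, 99.8% in endo_WT, and 92.9% (13 of 14 events) and 98.9% in RRM_OE.

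What was left for the rest of the region, where Tmem107 lies, was small. It came to 1, 5 and 25 events in WT (4.51, 4.55 and 6.33 CPM), 124 and 53 events in mutZn (10.5 and 8.24 CPM) and 2 and 8 events in D27aa. With anti-SRSF7 it was between 0 events (endo_OE 5) and 9 events (GFP_OE 4). The events of this region were thus those of the snoRNA-sized interval, and the Tmem107 part gave too few events outside mutZn and WT 4 for any comparison.

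Libraries also differed in where inside the U8 peak the events lay. Position 68886932 took 30.7% and 15.9% of the peak's events in GFP_OE, 31.0% and 24.9% in endo_OE, 20.9% in endo_WT and 19.9% in RRM_OE 4. In the anti-EGFP series it took 21.7% and 20.9% in D27aa and 24.2% in WT 2, against 5.91% and 3.79% in WT 3 and WT 4 and 6.41% and 3.05% in mutZn. It was among the 3 most crosslinked nucleotides in 11 of the 13 UV iCLIP libraries with at least 100 peak events, and position 68886948 was in 9 of 13. These positions were chosen after their values were seen, so no test is given. In the anti-EGFP series the share at 68886932 also split by depth, with the libraries below 1e+06 events higher, and the part of depth was not tested.

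The start of the peak differed along the same lines. Nucleotides before 68886932 held 31.3% and 30.3% of peak events in WT 3 and WT 4 and 27.2% and 31.7% in mutZn. They held 1.98% in WT 2, 3.48% and 3.49% in D27aa, and 0% to 9.66% in the 7 anti-SRSF7 libraries. By the mean of the 2 mutZn libraries the highest nucleotide was 68886927 with 19.0 CPM, 5 nt before 68886932. Singly, mutZn 3 was highest at 68886932 (273 events, against 214 at 68886927) and mutZn 4 at 68886925 (149 events). Toward the other end, the third 50-nt bin held 46.0% and 45.3% in D27aa and 40.1% in WT 2, against 19.9% and 24.3% in WT 3 and WT 4 and 15.9% and 18.1% in mutZn. Libraries with the same library identifier in the file header were treated as 1 sequencing run, which the sample titles do not name. By this rule WT 2 and D27aa 1 shared a sequencing run, and WT 3, WT 4, mutZn 4 and D27aa 2 shared another. D27aa 2 differed in these shares from the WT libraries of its own run, while WT 2 resembled both D27aa libraries. Within WT, the counts over U8 nucleotides differed between replicates 2 and 3 (chi-square over degrees of freedom 4.26) more than between 3 and 4 (1.26), and between the D27aa libraries they differed by no more than sampling noise (0.984). The value was 1.60 for WT 2 against D27aa 1 and 1.72 for WT 2 against D27aa 2. Over genome-wide windows the same statistic was 1.14 for WT 3 and WT 4, 1.11 for the mutZn pair and 1.16 for the D27aa pair. It was 2.88 and 4.12 for WT 2 against WT 3 and WT 4. All replicate pairs differed by more than sampling noise, which does not show that they are separate cultures. All libraries were kept as replicates.

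Gas5 carried a single bin that met the peak definition, and most of its events lay outside it. The bin chr1:162966201-162966250 stood at 14 times the median bin and held 8.54% and 7.52% of the Gas5 events of mutZn, with its highest nucleotide at 162966209. Its share was 6.33%, 7.67% and 4.74% in WT and 5.56% and 4.39% in D27aa. It was 21.1% and 18.0% in GFP_OE, 15% and 16.0% in endo_OE, 5.66% in endo_WT, and 11.1% (1 of 9 events) and 0% (0 of 22 events) in RRM_OE. In each of the 14 libraries, most Gas5 events were spread over the rest of the host.

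Snhg1 had no snoRNA-sized peak by this definition. Its highest bin in mutZn, chr19:8798901-8798950, stood at 6.33 times the median bin and held 4.93% of events. Bins of 25 nt gave 1 Snhg1 peak, which held 7.46% ± 4.94 (SD, n = 5) of events in WT and D27aa and 0.661% ± 0.849 (n = 7) with anti-SRSF7 (exact permutation test, adjusted p = 0.0114). At 5 times the median there were 4 peaks, with 16.1% ± 4.61 (n = 5) against 8.60% ± 2.91 (n = 7, exact permutation test, adjusted p = 0.0114). The peaks were picked in mutZn, a group of the anti-EGFP series, and mutZn 4 shared a run with WT 3, WT 4 and D27aa 2. The choice of bins thus favours a higher share with anti-EGFP, and these tests cannot tell that from a difference between antibodies. The 7 anti-SRSF7 libraries came from 2 sequencing runs that held no anti-EGFP library, and the permutation treats libraries of 1 run as independent. Antibody and run cannot be told apart in these shares. In mutZn the shortest stretch of bins with 95% of events was 3250 nt at Gas5 and 2800 nt at Snhg1, close to the lengths RefSeq gives for the 2 genes, against 150 nt at U8. It took 17 bins to reach 50% of the Gas5 events and 16 for Snhg1, where U8 needed 1. The host events were broad in mutZn, and the U8 events were not. The mutZn no-UV library was no lower at U8 (705 CPM) and Gas5 (345 CPM), and whether these profiles depend on UV was not tested.

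**Figure D2:**
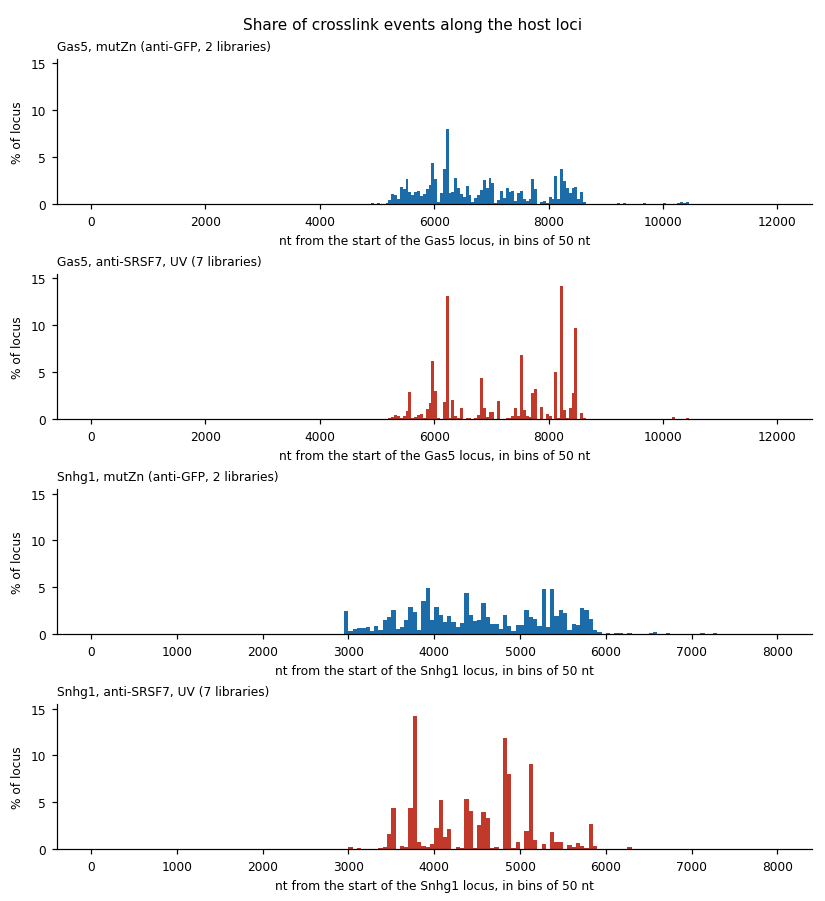
Percent of the region's events in each 50-nt bin along Gas5 and Snhg1, by distance in nt from the region's first nucleotide, for the 2 mutZn libraries and for the 7 UV anti-SRSF7 libraries. The shortest stretch with 95% of events is 3250 nt at Gas5 and 2800 nt at Snhg1 in mutZn. With anti-SRSF7 it is 2950 and 2250 nt, and the events gather in fewer bins, although fewer events also fill fewer bins.

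With anti-SRSF7, host events were gathered in fewer bins. Over the 7 libraries together, 5 bins reached 50% at Gas5 and 6 bins at Snhg1, although fewer events also fill fewer bins. The shortest stretch with 95% of their events was 2950 nt at Gas5 and 2250 nt at Snhg1. To look at this in libraries that did not pick the bins, the 6 highest bins were taken from endo_OE and endo_WT and read in the others. At Gas5 they held 38.6% and 48.3% of events in GFP_OE and 33.3% (3 of 9) and 50% (11 of 22) in RRM_OE. In the anti-EGFP libraries they held 13.9%, 20.7% and 17.6% in WT, 21.9% and 22.6% in mutZn, and 25.9% and 19.3% in D27aa.

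Snhg1 showed the same separation for GFP_OE. The 6 bins held 38.9% and 45.6% of events in GFP_OE, and 10.0% (1 of 10) and 45.0% (9 of 20) in RRM_OE. They held 14.8%, 14.2% and 13.5% in WT, 10.6% and 12.1% in mutZn, and 16.7% and 13.8% in D27aa. Both GFP_OE libraries lay above all 7 anti-EGFP libraries at both hosts, while RRM_OE 3 lay below them at Snhg1. One of these bins, chr19:8798751-8798800, ranked 3 in endo_OE and endo_WT and 1 over all 7 anti-SRSF7 libraries. It held 79.0 and 112 CPM in GFP_OE, 179 and 59.9 in endo_OE, 75.7 in endo_WT, and 0 and 140 in RRM_OE. The same bin held 0, 4.55 and 6.58 CPM in WT and 3.40 and 5.75 in mutZn. The 2 bins above it in endo_OE and endo_WT, chr19:8799801-8799850 and chr19:8800101-8800150, held group means of 19.1 and 40.7 CPM in GFP_OE. In these 2 bins RRM_OE held 0 CPM, WT 3.16 and 5.95 CPM, and mutZn 3.90 and 3.42 CPM. GFP_OE and WT also differ in antibody and share no sequencing run, so antibody, product and run cannot be told apart here.

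**Figure D3:**
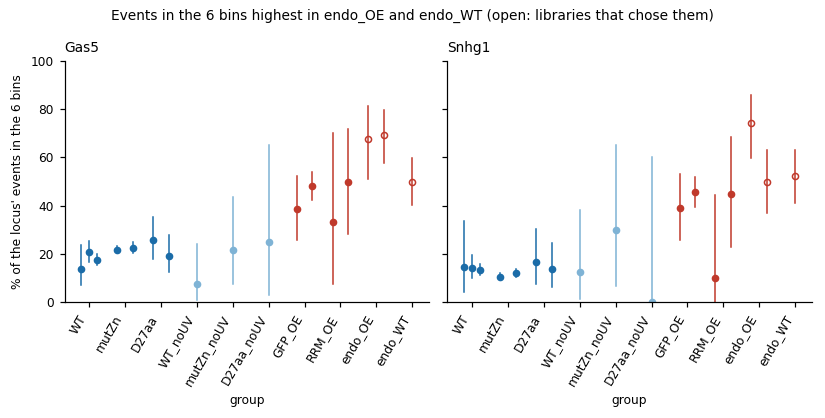
Percent of the events of Gas5 and Snhg1 that lie in the 6 bins highest in endo_OE and endo_WT, by library, with exact 95% binomial intervals. Open points are the libraries that picked the bins, which share a sequencing run with GFP_OE 4 and RRM_OE 4. GFP_OE 3 and 4 (38.6% and 48.3% at Gas5) lie above all WT, mutZn and D27aa libraries.

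Whether the peak shares differed between kinds of library was asked by 6 exact permutation tests (two-sided, Benjamini-Hochberg adjusted over the 6), leaving mutZn out because it defined the peaks. The U8 share was 98.9% ± 0.683 (SD, n = 5) in WT and D27aa and 94.1% ± 7.29 (n = 3) without UV (exact p = 0.143, adjusted 0.429). It was 97.4% ± 3.94 (n = 4) in piCLIP against 98.9% ± 0.715 (n = 3) in WT (exact p = 0.743, adjusted 1), and 98.4% ± 2.51 (n = 7) with anti-SRSF7 against 98.9% with anti-EGFP (exact p = 0.967, adjusted 1). The Gas5 share was 12.4% ± 7.38 (n = 7) with anti-SRSF7 and 5.74% ± 1.32 (n = 5) with anti-EGFP (exact p = 0.0732, adjusted 0.429). The other 2 Gas5 tests gave adjusted p of 0.429 (no UV) and 1 (piCLIP). No share passed, and the smallest p the designs allowed was 0.0357 for UV, 0.00253 for the antibody, and 0.0571 (U8) and 0.1 (Gas5) for piCLIP. With Gas5 bins of 25 nt, or peaks from 5 times the median bin, the antibody difference was 10.6 and 20.2 percentage points and passed (adjusted p = 0.0114 for both). With peaks defined on the 7 UV anti-EGFP libraries it was 3.20 percentage points (adjusted p = 0.889).

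Between mutZn and WT, Gas5 was the member that passed the test, which was limma-voom across 36193 windows and regions with Benjamini-Hochberg adjustment. Gas5 fell by 0.45 ± 0.06 on the log2 scale (SE, adjusted p = 4.52e-06), and both mutZn libraries (232 and 236 CPM) lay below all 3 WT libraries. U8 differed by -0.18 ± 0.14 (adjusted p = 0.351) and Snhg1 by -0.01 ± 0.09 (adjusted p = 0.932). In this comparison 28.4% of all windows passed, so 1 of 3 members is near the background. In the sequencing run that mutZn 4 shared with WT 3 and WT 4, the Gas5 ratio was 0.735 and 0.761, the U8 ratio 0.856 and 1.04, and the Snhg1 ratio 0.994 and 1.003. The Gas5 call was lost under limma-trend (-0.49, adjusted p = 0.523). With each crosslinked position counted once, U8 differed by -1.11 (adjusted p = 0.00629) and Snhg1 by -0.48 (adjusted p = 0.00129), and both passed. This count is capped by the nucleotides of a region, so its share can fall as depth grows. U8 had 66 positions of 208077 in WT 2 and 230 of 9919310 in mutZn 3. Depth and level cannot be told apart in this setting. With no filter on low windows limma-voom gave U8 a difference of 0.065 (adjusted p = 4.54e-120). That p is out of keeping with a WT range of 347 to 1142 CPM, so it is not read as a call.

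Between D27aa and WT, U8 was the member that passed. It was higher in D27aa by 1.35 ± 0.19 (adjusted p = 3.26e-05), with D27aa at 999 and 1128 CPM and WT at 1142, 421 and 347. The 2 groups overlapped, because WT 2 lay above both D27aa libraries. Gas5 differed by -0.12 ± 0.11 (adjusted p = 0.761) and Snhg1 by -0.40 ± 0.17 (adjusted p = 0.315). Of all windows, 2.75% passed. The same WT libraries served as control for mutZn and for D27aa, so the 2 sets of values are not independent.

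The U8 difference for D27aa depended on the run and on WT 4. In the run of WT 2 the ratio of D27aa 1 to WT 2 was 0.874 (interval 0.744 to 1.03), and in the other run D27aa 2 stood at 2.68 times WT 3 (2.35 to 3.06) and 3.25 times WT 4 (2.91 to 3.62). With the run as a block the limma-voom difference was 0.94 (adjusted p = 1.75e-09). That p is out of keeping with ratios of 0.874 in 1 run and 2.68 and 3.25 in the other, so it is not read as a call. The U8 difference no longer passed without WT 4 (0.86, adjusted p = 0.155), with the D27aa and WT libraries alone (0.97, adjusted p = 0.216) or under limma-trend (0.95, adjusted p = 0.363).

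The products taken with anti-SRSF7 were compared with GFP_OE over 440 windows and regions. U8 was 1.98 ± 0.80 higher in endo_OE (adjusted p = 0.314), Gas5 0.999 ± 0.39 (adjusted p = 0.296) and Snhg1 1.17 ± 0.45 (adjusted p = 0.289). None of the 3 members passed, and 0.227% of windows did. The median over all windows was 0.41 here and 0.03 with trimmed-mean scaling, and relative to these medians U8 stood at 1.57 and 1.54. In the run shared with GFP_OE 4, endo_OE 4 and 5 held 3.12 and 3.02 times its U8 level (intervals 2.73 to 3.55 and 2.74 to 3.32), 1.88 and 1.41 times its Gas5 level and 2.56 and 1.35 times its Snhg1 level. With run as a block the U8 difference was 1.4 (adjusted p = 0.0404), and it also passed without GFP_OE 3 (1.62, adjusted p = 0.0458) and without GFP_OE 4 (2.35, adjusted p = 0.0133).

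RRM_OE and GFP_OE could not be told apart at the members. The differences were -0.37 ± 0.78 for U8 and -0.02 ± 0.39 for Gas5, and for Snhg1 0.09 ± 0.45, which was -0.07 with trimmed-mean scaling (adjusted p = 0.988 for each of the 3 in limma-voom). None of 440 windows passed (0%), with 26 at an unadjusted p under 0.05 and 0 under limma-trend. The U8 ratio went opposite ways in the 2 runs, 0.495 (0.266 to 0.849) for RRM_OE 3 and 1.55 (1.32 to 1.82) for RRM_OE 4. The fitted U8 difference turned positive without GFP_OE 4 (0.14) and without RRM_OE 3 (1.02). GFP_OE served as control for both RRM_OE and endo_OE.

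Comparing the antibodies on SRSF7-GFP cells, all 3 members were higher in GFP_OE than in WT. Snhg1 was higher by 1.45 ± 0.21 (adjusted p = 0.00326), U8 by 1.81 ± 0.42 (adjusted p = 0.0267) and Gas5 by 0.75 ± 0.16 (adjusted p = 0.0215). Both GFP_OE libraries lay above all 3 WT libraries at each member. Of 9898 windows 9.16% passed, and the median window differed by -0.10 (0.00 with trimmed-mean scaling), so that relative to the median Snhg1 stood at 1.55, U8 at 1.91 and Gas5 at 0.85. All 3 calls were lost without WT 4 (Snhg1 1.60, U8 1.33 and Gas5 0.61, with adjusted p = 0.0766, 0.176 and 0.170), without GFP_OE 4 (1.24, 1.53 and 0.47, with 0.110, 0.447 and 0.844) and under limma-trend (1.49, 1.90 and 0.70, with 0.141, 0.242 and 0.328). The U8 call was also lost without WT 3 (1.29, adjusted p = 0.175) or GFP_OE 3 (2.31, 0.0908), and the Gas5 call without WT 3 (0.65, 0.0980) and with the replicate block (0.76, 0.189), and no run held both groups.

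In the ribosome fractions, U8 was the member with events enough to test. Mono_IP held 821 and 1411 CPM (43 and 45 events) and poly_IP 130.0 and 655 CPM (3 and 12 events). The 2 groups did not overlap, and the difference was -2.09 ± 1.02 (limma-voom, adjusted p = 0.727), where 0 of 264 windows passed (0%), 9 had an unadjusted p under 0.05 and limma-trend called 0. How many of the 264 windows separate in this way was not counted, so the separation is not read as particular to U8. Relative to the median window the difference was -1.27, or -0.94 with trimmed-mean scaling. Position 68886932 held 32.6% and 27.3% of the U8 events of mono_IP. Gas5 gave 16 and 3 events in mono_IP and 3 and 0 in poly_IP, and Snhg1 gave 7 and 0 in mono_IP and 6 and 0 in poly_IP, below the filter.

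The controls carried events at all 3 members. Without UV, U8 stood at 899 CPM (80 events) for WT, 705 CPM (47) for mutZn and 401 CPM (14) for D27aa. Gas5 stood at 303, 345 and 229 CPM and Snhg1 at 179.8, 150.1 and 115 CPM, from 4 to 27 events. The U8 level of the UV libraries over their own no-UV library was 1.27, 0.468 and 0.386 in WT, 0.527 and 0.511 in mutZn, and 2.49 and 2.81 in D27aa. For Gas5 the ratio was 1.02 to 1.18 in WT, 0.671 and 0.682 in mutZn, and 1.25 and 1.28 in D27aa, and for Snhg1 it ran from 0.678 to 1.46. Every Gas5 and Snhg1 interval included 1, so UV gave no detectable gain in CPM at the hosts at this depth. At U8 the intervals lay below 1 in WT 3 (0.368 to 0.601), WT 4 (0.308 to 0.490), mutZn 3 (0.396 to 0.719) and mutZn 4 (0.383 to 0.697). That of WT 2 included 1 (0.984 to 1.65), and those of D27aa lay above 1 (1.47 to 4.60 and 1.66 to 5.19). CPM is a share of a library, and the no-UV libraries were smaller in total events.

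The no-UV events at U8 lay in the same interval. The 150-nt peak held 98.8% of them for WT (79 of 80), 97.9% for mutZn (46 of 47) and 85.7% for D27aa (12 of 14). Position 68886932 held 8.86% of the peak's events in WT without UV and 6.52% in mutZn without UV, and 0 of 12 events in D27aa without UV (0%, interval up to 26.5%). In the anti-SRSF7 series the no-UV library had 2 U8 events and 3 Gas5 events, and the no-antibody library had 6 and 1, with 0 Snhg1 events in both. At U8 these were 1124 CPM (interval 136 to 4053) without UV and 1955 CPM (718 to 4250) without antibody. GFP_OE 3 and 4 stood at 1.42 (0.388 to 11.8) and 2.37 (0.656 to 19.6) times the no-UV level at U8. At Gas5 they stood at 0.267 (0.0869 to 1.33) and 0.378 (0.128 to 1.84) times. These 2 controls are too shallow to tell the GFP_OE levels from theirs. The 2 libraries titled IgG had 0 U8 events, which by the limit of 3 events for a count of 0 allows up to 2602 CPM for mono_IgG and 269 CPM for poly_IgG, so the first says nothing about a level such as that of mono_IP. Poly_IgG had 1 Gas5 event and mono_IgG 0, and neither had a Snhg1 event.

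The authors' deposited peak lists, which keep nucleotides with more events than a shuffled neighbourhood, also covered the members. In the authors' deposited list for WT, 117 peak nucleotides lay in the U8 region (67 of them in the 150-nt peak), 983 in Gas5 and 802 in Snhg1, of 2045481. In that for mutZn they numbered 59 (41 in the peak), 655 and 671, of 2246120, and in that for D27aa 49 (all in the peak), 42 and 23, of 34759. The authors' deposited no-UV lists held 14, 2 and 2 such nucleotides for WT, 6, 0 and 0 for mutZn, and none for D27aa. The piCLIP list had 7 in U8, 8 in Gas5 and 0 in Snhg1, and the lists titled IgG had none. List lengths follow depth, so the numbers are not compared between lists. The WT list names 4 source libraries while 3 WT libraries were analysed here. In the authors' deposited list for WT the highest score in the U8 peak was 874, at position 68887017, where the 3 WT libraries summed to 91 events, and 66 of its 67 U8 nucleotides scored above that sum. In the mutZn and D27aa lists all 41 and 49 scores equalled the sum of their libraries. The WT profile at U8 given here is thus that of 3 libraries, and the list's WT scores rest on more events.

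Over the 14 UV iCLIP libraries, the log2(CPM + 1) levels of Gas5 and Snhg1 correlated with Pearson r = 0.917, U8 and Gas5 with 0.859 and U8 and Snhg1 with 0.730. The points share antibody, run and depth, so these values are descriptions. Among the 1581 windows with at least 1 event in each library, the one most like U8 was the minus-strand window chr4:3760001-3765000 (r = 0.934), followed by chr11:106360001-106365000 on the plus strand (0.917). The same chr4 window was the third most like Gas5 (0.937), after chr8:113345001-113350000 on the minus strand (0.948). The window most like Snhg1 was chr2:166890001-166895000 on the plus strand (0.928). The median r over all windows was 0.08 for U8, 0.21 for Gas5 and 0.28 for Snhg1.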

How the data were processed

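Crosslinked nucleotides of 25 libraries were read from the deposited files. Per the file headers, the authors' score in each row is the number of cDNAs at that nucleotide on mm9 (annotation Ensembl 59), with a minus sign for the minus strand. The submitters' processing notes name CASAVA 1.4. The aligner is not given in the sources used here. The authors' peaks, per the file headers, passed 100 permutations within 15 nt at a false discovery rate of 0.05.

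Scores were summed over each region and over 5000-nt strand windows and divided by the placed total per 1e+06 events. Since the deposited score is not a plain count column, limma-voom (limma 3.58.1, R 4.3.3) was used, with Benjamini-Hochberg adjustment at 0.05 over all windows that reached 10 events, scaled to the median total, in at least as many libraries as the smallest group with replicates has. The fits used the 7 UV anti-EGFP libraries, the 7 UV anti-SRSF7 libraries, the 4 piCLIP immunoprecipitates, or WT and GFP_OE (5). The method was tested on simulated data. Groups and replicate numbers came from the sample titles. Sequencing runs were inferred from the library identifier in the file headers. The design text names biological replicates for the GFP-tagged proteins, but WT 3 and WT 4 carry 1 replicate number in the file headers, mutZn 3 and mutZn 4 share a barcode, and where libraries are not separate cultures p-values measure technical spread only. The header of the anti-SRSF7 no-UV library gives its condition as noUV-trunc. The libraries titled IgG list anti-EGFP as antibody. Profiles used 50-nt bins, and the peaks were named by a rule on mutZn: the snoRNA-sized peaks with the highest mean CPM and the highest nucleotide of each, plus the 3 windows most correlated with each region. Members, lists and rules were chosen with earlier results of these data known. Planned share tests at Snhg1 were not run, since it had no peak. Gene lengths and snoRNA numbers are RefSeq's.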

Additional observations from a re-analysis of the deposited data

Results flagged for a closer look

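U8 moved in opposite directions against the no-UV library of 2 proteins. The CPM of mutZn 3 was 0.527 times and that of mutZn 4 was 0.511 times the no-UV level, and the CPM of D27aa 1 was 2.49 times and that of D27aa 2 was 2.81 times the no-UV level. The difference between the proteins was not tested, and the D27aa no-UV library held 14 U8 events.

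Events on the minus strand of the Gas5 region, which no comparison used, were above the highest level of the anti-EGFP no-UV libraries (11.2 CPM, 1 event) in 4 libraries, taken over their own counting intervals alone. They stood at 25.1 CPM in WT 4, 20.9 CPM in mutZn 3 (246 events), 22.2 CPM in mutZn 4 and 113 CPM in RRM_OE 3 (2 events). The interval of that single no-UV event, 0.284 to 62.6 CPM, covers the WT 4 and mutZn values, and the no-antibody library of the anti-SRSF7 series stood at 326 CPM (1 event), above RRM_OE 3. The controls are thus too shallow to show a difference.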

How the results depend on the processing

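For U8 in D27aa against WT the log2 difference was 0.95 under limma-trend and 0.97 with those 2 groups alone, neither past the threshold, and 0.86 to 1.58 when single libraries were left out. For mutZn against WT, Gas5 was -0.49 under limma-trend (lost) and -0.51 to -0.42 with single libraries left out. Counting positions once gave -1.11 for U8 and -0.48 for Snhg1 (both past the threshold, in a setting that depth can move). U8 turned to 0.065 with no filter (past the threshold, but not read as a call given the spread of WT) and to 0.0073 with the replicate block (left-out range -0.68 to 0.052). Snhg1 turned to 0.18 under limma-trend and to 0.011 with the run as a block (-0.10 to 0.12). For RRM_OE against GFP_OE, positions counted once gave 0.22 for Gas5 and 1.5 for U8, and trimmed-mean scaling -0.074 for Snhg1, with left-out ranges of -0.27 to 0.22, -1.33 to 1.02 and -0.12 to 0.29. For endo_OE against GFP_OE, U8 passed with positions counted once (1.96, a setting that depth can move) and with the run as a block (1.4). It ranged from 1.62 to 2.35 with libraries left out. For GFP_OE against WT, limma-trend lost all 3 calls (0.70 for Gas5, 1.49 for Snhg1, 1.90 for U8), positions counted once lost U8 (1.94) and the replicate block lost Gas5 (0.76). The left-out ranges were 0.47 to 0.97, 1.24 to 1.63 and 1.29 to 2.42. Where a group was left with 1 library, the fit assumed that it varied like the others. The cause of these moves was not tested.

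Calls over all windows were 10272 for mutZn against WT (2117 with no filter, 5 under limma-trend, 5539 with the replicate block, 4242 to 9174 with libraries left out) and 996 for D27aa against WT (492, 9, 471 with the 2 groups alone, 2579 with the run as a block, 383 to 2250). They were 907 for GFP_OE against WT (6 under limma-trend, 380 with the replicate block, 0 to 711) and 0 for poly_IP against mono_IP (limma-voom, 9 unadjusted, 23 with no filter, 5 with the replicate block, 0 to 23). For RRM_OE against GFP_OE they were 0 (26 unadjusted), 3 with positions counted once, 71375 with no filter, 1 with the 2 groups alone, 1 with the run as a block and 0 to 7 with libraries left out. For endo_OE against GFP_OE they were 1, then 39 with positions counted once, 0 with trimmed-mean scaling, limma-trend or the 2 groups alone (67 unadjusted in limma-voom), 49 with the run as a block and 0 to 55. The lowest count came without WT 4 for mutZn (4242), D27aa (383) and GFP_OE (0) against WT, and the highest without WT 3 for D27aa (2250), without GFP_OE 3 for RRM_OE (7) and endo_OE (55), and without poly_IP 2 for piCLIP (23).

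The U8 share difference turned with positions counted once for UV (-2.97 percentage points), piCLIP (4.48) and anti-SRSF7 (3.08), for piCLIP with peaks from the anti-SRSF7 libraries (0.50), and for anti-SRSF7 with 20 or more events per library (0.48). Left-out ranges were 0.557 to 7.07, -2.42 to 0.36 and -0.706 to 0.484. The Gas5 share difference for UV turned with 25-nt bins (1.36) and with peaks from the anti-SRSF7 libraries (1.44), and for piCLIP with the latter (-2.14). For anti-SRSF7 it was 10.6 with 25-nt bins and 20.2 at 5 times the median, both past the threshold. With peaks from the 7 UV anti-EGFP libraries it was 3.20, not past it. Left-out ranges were -7.04 to -2.37, -6.25 to 10.4 and 5.23 to 8.73. Added after seeing the data were the run as a block, peaks from anti-SRSF7 libraries and the replicate block for GFP_OE against WT. With 2 shared numbers per pair, the numbers were not shown to pair the libraries (correlation of deviations -6.19e-05 for mutZn and WT, 0.0117 for GFP_OE and WT, 0.459 for piCLIP, 0.5 for RRM_OE and GFP_OE, whose numbers match runs). In the block, Gas5 in mutZn stood at -0.41 and U8 in poly_IP at -1.28.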
